A study of Mus musculus with 4 samples.

Results

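The FoxO transcription factors and the ubiquitin ligases of muscle atrophy were followed in muscle stem (satellite) cells after a morpholino that blocks inclusion of exon 6 of Numb. The members were the 4 FoxO genes Foxo1, Foxo3, Foxo4 and Foxo6 and the 3 ligase genes Fbxo32, Trim63 and Fbxo30, chosen by gene symbol. All 7 were found among the 55487 gene identifiers of the deposited tables, and all 7 were among the 27551 genes kept by the filter on low counts. Minced skeletal muscle of Tg:Pax7-nGFP mice, which carry a nuclear green fluorescent protein expressed with Pax7, was exposed to a vivo-morpholino in the initial digestion, and satellite cells were then isolated for RNA-seq. A vivo-morpholino is an antisense oligomer that enters cells without transfection. It was added before the cells were isolated, so the other cells of the muscle met it too. The Numb exon 6 morpholino group held 2 libraries and the control morpholino group 2 libraries, and each of 2 mice gave 1 library to each group. The transgene was shared by both groups.

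FoxO proteins are forkhead transcription factors that sit downstream of insulin and insulin-like growth factor signalling. Active Akt phosphorylates them and they leave the nucleus, whereas in fasted or unloaded muscle they stay nuclear and switch on genes of protein breakdown. Fbxo32 (atrogin-1) and Fbxo30 (MUSA1) encode F-box proteins, which choose the substrates of SCF ubiquitin ligases, and Trim63 (MuRF1) encodes a RING-finger ligase that acts on thick filament proteins of the sarcomere. In satellite cells FoxO3 is known to favour quiescence, in part through Notch receptors, and Numb is known as an inhibitor of Notch.

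The deposited estimated counts summed to 318663258 and 230431665 in the Numb exon 6 libraries and to 355411827 and 306485954 in the control libraries of mouse 1 and mouse 2. These counts derive from coverage, and low values pile up at multiples of 4. In the control library of mouse 1, for example, 709 genes held a count of 8, against 463 at 7 and 372 at 9, so 1 fragment may be worth about 4 counts. Of the genes at counts of 1 to 14, 26.3% to 28.1% in each library sat at 4, 8 or 12 and most did not, so this value is rough. Levels are given as the authors' TPM (transcript abundance scaled to transcript length and library) and fold changes come from the estimated counts. The TPM were not scaled further between libraries. Genes like ribosomal RNA held 6.53% and 5.06% of the counts in the Numb exon 6 libraries and 8.95% and 5.00% in the control libraries. Numb itself stood at 39.7 and 40.2 TPM in the Numb exon 6 libraries and at 27.2 and 37.0 TPM in the control libraries; values per gene do not show which transcripts hold exon 6. Of 10 satellite cell markers none was absent, and their summed level was 11971 and 12062 TPM in the Numb exon 6 libraries and 10253 and 11031 TPM in the control libraries.

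The promoters of a ligase gene and a FoxO gene are shown because they differ in build and meet the annotated start of the gene. RefSeq promoters (GRCm38.p6) were matched for 4 of the 7 genes, Foxo1, Foxo3, Trim63 and Fbxo30. The 250 bases before the RefSeq start were searched on both strands for the FoxO core GTAAACA, the TATA box TATAAA and the GC box GGGCGG, and matches are in capitals. The Trim63 window is chr4:134314870-134315119 and the Foxo1 window chr3:52268087-52268336, both on the plus strand.
Trim63: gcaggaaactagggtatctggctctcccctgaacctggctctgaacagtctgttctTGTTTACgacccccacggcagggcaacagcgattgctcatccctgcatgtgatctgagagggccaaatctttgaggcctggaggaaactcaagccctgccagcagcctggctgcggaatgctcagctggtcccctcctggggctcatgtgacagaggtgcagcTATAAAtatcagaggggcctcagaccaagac
Foxo1: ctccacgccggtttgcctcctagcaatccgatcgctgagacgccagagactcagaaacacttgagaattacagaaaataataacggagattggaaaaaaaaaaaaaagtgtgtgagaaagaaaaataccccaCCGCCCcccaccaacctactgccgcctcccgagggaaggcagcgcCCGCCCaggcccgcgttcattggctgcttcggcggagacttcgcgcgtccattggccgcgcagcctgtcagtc
Trim63 held 1 FoxO core, beginning 194 bases before the start on the minus strand (read here as TGTTTAC), and 1 TATA box 31 bases before the start. Its window had a GC content of 56.8% and 4 CpG dinucleotides. Foxo1 held neither of these motifs but 2 GC boxes (read here as CCGCCC), in a window of 56.0% GC with 20 CpG dinucleotides. Among 32851 promoter windows of the same length, 3.17% held the FoxO core, 12.4% the TATA box and 32.7% the GC box, and the medians were 52.4% GC and 6 CpG dinucleotides. The RefSeq and GENCODE starts part for the other 2 genes: all 250 bases of the Fbxo30 window and 60 bases of the Foxo3 window lie inside the GENCODE gene model, against 1 for Foxo1 and 0 for Trim63. The Fbxo30 and Foxo3 windows are therefore not shown; they held no FoxO core and no TATA box, with 4 and 5 GC boxes. A match describes these letters only and is not a binding site.

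The 7 genes spanned nearly 3 orders of magnitude in TPM. Fbxo30 led at a mean of 170 TPM over the 4 libraries, with 781 genes at a higher mean. Foxo3 followed at 13.4 TPM, Foxo1 at 9.59 TPM, Fbxo32 at 7.47 TPM and Foxo4 at 1.26 TPM. Trim63 and Foxo6 stood at means of 0.220 and 0.216 TPM. Neighbours in this order did not overlap in any library down to Foxo4, while Trim63 (0.130 to 0.271 TPM) and Foxo6 (0.108 to 0.324 TPM) overlapped and could not be ordered.

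**Figure D1:**
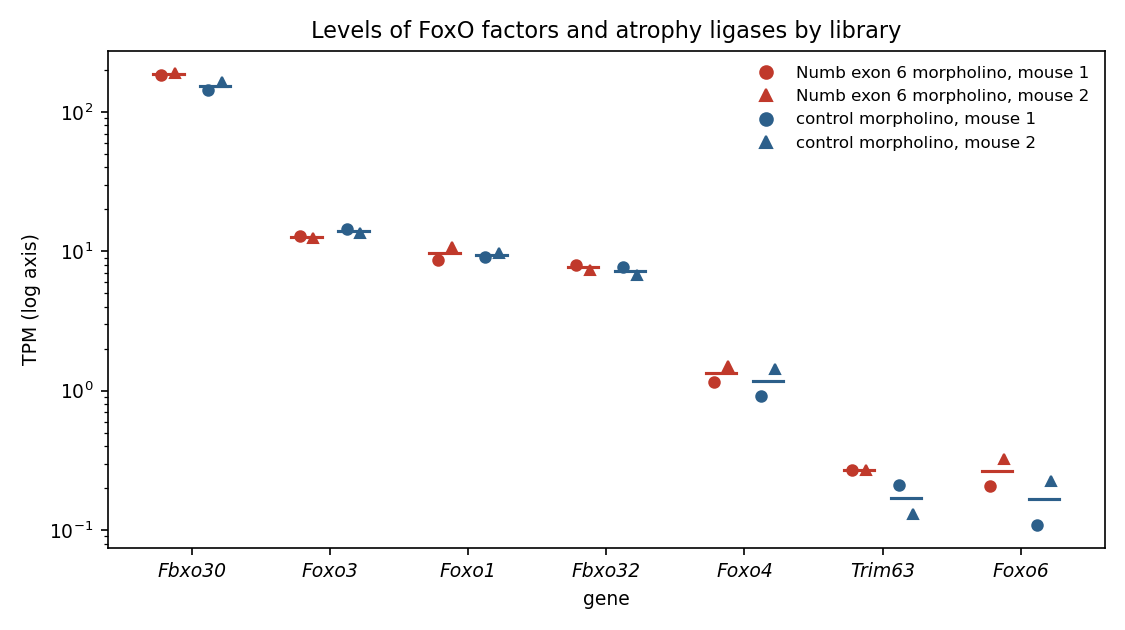
TPM (log axis) of each gene in the 4 libraries, with Numb exon 6 libraries in red left of control libraries in blue, mouse 1 as circles, mouse 2 as triangles and short lines at the group means. Fbxo30 lies between 142 and 189 TPM, far above the other ligase genes, and the points of Trim63 and Foxo6 are spread the widest.

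Among the ligases, Fbxo30 dominated. Of the summed TPM of Fbxo30, Fbxo32 and Trim63, Fbxo30 made up 95.7% and 96.1% in the Numb exon 6 libraries and 94.7% and 96.0% in the control libraries of mouse 1 and mouse 2. It was 23.0 and 25.6 times as abundant as Fbxo32 in the Numb exon 6 libraries and 18.4 and 24.2 times in the control libraries. Fbxo32 in turn stood at 29.3 and 27.5 times Trim63 in the Numb exon 6 libraries and at 36.5 and 52.3 times in the control libraries, ratios that rest on few Trim63 fragments.

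Levels were also ranked within the wider gene families. Fbxo30 ranked 1 of 78 genes with Fbxo, Fbxw or Fbxl names by mean TPM, ahead of Fbxw11 (118 TPM) and Fbxo11 (103 TPM), and Fbxo32 ranked 23. The lowest Fbxo30 library, at 142 TPM, was above the highest Fbxw11 library, at 129 TPM. Among 44 forkhead genes Foxo3 ranked 6, Foxo1 ranked 9, Foxo4 ranked 12 and Foxo6 ranked 18, and 12 of the 44 had a mean of at least 1 TPM. Foxn3 (59.4 TPM), Foxn2 (43.2 TPM) and Foxp1 (38.1 TPM) led that family. These families were taken by symbol after the levels had been seen.

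**Figure D2:**
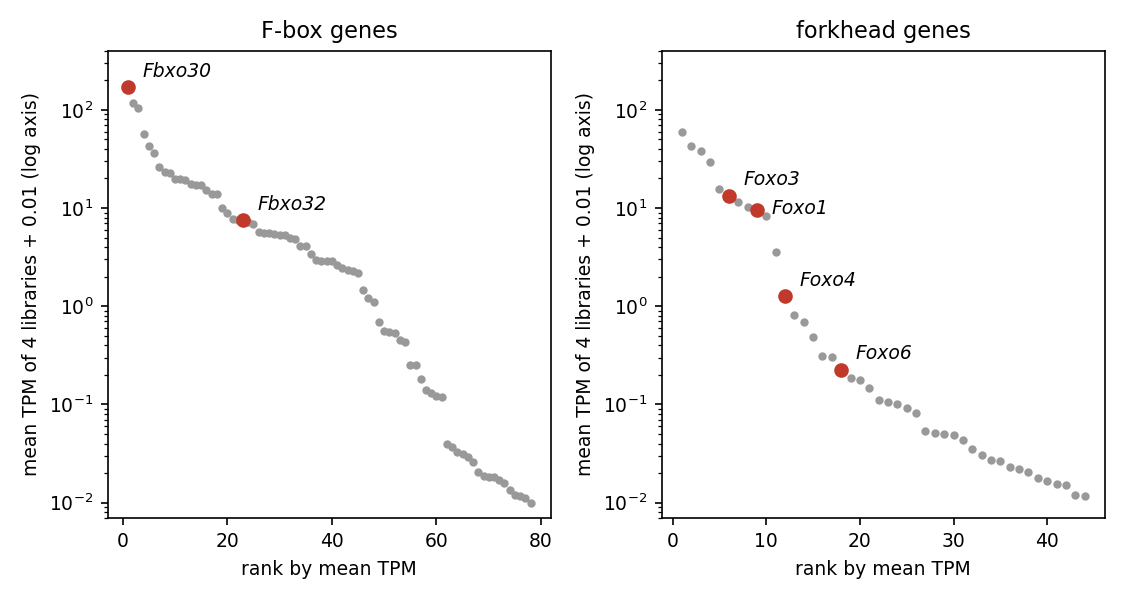
Mean TPM of the 4 libraries plus 0.01 (log axis) against rank, for 78 F-box genes (left) and 44 forkhead genes (right); the FoxO factors and atrophy ligases are in red and the other genes in grey. Fbxo30 is at rank 1 and Fbxo32 at rank 23, and the FoxO genes lie at ranks 6, 9, 12 and 18.

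Among the FoxO genes, Foxo3 and Foxo1 made up nearly the whole family. Their summed level with Foxo4 and Foxo6 was 22.9 and 25.2 TPM in the Numb exon 6 libraries and 24.6 and 24.99 TPM in the control libraries. Foxo3 took 56.0% and 49.8% of it in the Numb exon 6 libraries and 58.9% and 54.3% in the control libraries of mouse 1 and mouse 2. Foxo1 took 38.0% and 42.9% in the Numb exon 6 libraries and 36.9% and 39.1% in the control libraries. The ratio of Foxo3 to Foxo1 was therefore 1.47 and 1.16 with the Numb exon 6 morpholino and 1.59 and 1.39 with the control.

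The comparison of the morpholinos asked whether these transcripts differ when Numb exon 6 is blocked during satellite cell activation. By edgeR's quasi-likelihood test with Benjamini-Hochberg adjustment over all 27551 genes, 0 of the 7 passed 0.05 and each had an adjusted p of 0.999. Over all tested genes the test also called 0 (0%). At an unadjusted p under 0.05 there were 0 of the 7, against 4.16% of all tested genes, and DESeq2 and limma-voom called 0 of the 7 as well, against 0.241% and 0% of the genes given an adjusted p. DESeq2 with the mouse as a block also called 0 of the 7, against 0.699%. Within the mice, ratios were taken on counts scaled to library size. By these, 4 of the 7 genes were higher with the Numb exon 6 morpholino in both (Foxo4, Foxo6, Trim63 and Fbxo30), against 28.1% of all tested genes. Lower in both was 1 (Foxo3), against 27.3%. Among the genes higher in both, Foxo6 and Trim63 rested on few fragments. In mouse 1 Trim63 had estimated counts of 69 with the Numb exon 6 morpholino and 70 with the control. The other 2 (Foxo1 and Fbxo32) had opposite signs, as had 44.6% of all tested genes, but in TPM Fbxo32 was higher in both mice. The median log2 fold change of the 7 was 0.21, and that of all tested genes 0.0050.

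Fbxo30 (GRCm38 chromosome 10, 11281330 to 11298052, plus strand) had the smallest p of the 7. It stood at 183 and 189 TPM in the Numb exon 6 libraries and at 142 and 165 TPM in the control libraries of mouse 1 and mouse 2. Both Numb exon 6 libraries lay above both control libraries. Its mean was 186 ± 4.09 TPM with the Numb exon 6 morpholino and 154 ± 15.6 TPM with the control (SD, n = 2 each). In CPM (counts scaled to library size by TMM) the Numb exon 6 libraries held 473 and 475, against 388 and 432 in the control libraries. The log2 ratios of CPM within mouse 1 and mouse 2 were 0.29 and 0.14, and those of TPM were wider, at 0.36 and 0.20. The edgeR log2 fold change was 0.21 ± 0.11 (SE; 95% interval -0.06 to 0.48; unadjusted p = 0.106). With the mouse as a block it was 0.21 ± 0.08 (SE; 95% interval 0.0071 to 0.42), with an unadjusted p of 0.045 and an adjusted p of 0.796. Under that block 1 of the 7 genes was under an unadjusted p of 0.05, against 6.09% of all tested genes, and edgeR again called 0 (0%).

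Fbxo32 (chromosome 15, 58175879 to 58214932, minus strand), which is known to act on MyoD and the initiation factor subunit eIF3f, had CPM ratios of opposite sign in the mice. It stood at 7.96 and 7.38 TPM in the Numb exon 6 libraries and at 7.74 and 6.79 TPM in the control libraries, so the groups overlapped. The log2 ratios of CPM were -0.04 in mouse 1 and 0.09 in mouse 2, whereas those of TPM were 0.04 and 0.12. The edgeR log2 fold change was 0.02 ± 0.15 (SE; 95% interval -0.37 to 0.41), and it ran from -0.10 to 0.14 when 1 library was left out. An antisense gene model, Gm15943, overlaps Fbxo32, and the library method does not mark the strand.

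Trim63 (chromosome 4, 134315120 to 134329629, plus strand) rested on few fragments. Its estimated counts were 69 and 57 in the Numb exon 6 libraries and 70 and 37 in the control libraries. At 4 counts a fragment these are about 17 and 14 fragments in the Numb exon 6 libraries and 18 and 9 in the control libraries, and the exact Poisson 95% intervals (counting error only) of the 2 libraries of mouse 2 were 7.65 to 23.5 with the Numb exon 6 morpholino and 4.12 to 17.1 with the control. In TPM the Numb exon 6 libraries held 0.271 and 0.268, against 0.212 and 0.130 in the control libraries. Both Numb exon 6 libraries were the higher, but the log2 ratios of CPM were 0.10 and 0.97 in mouse 1 and mouse 2, and the fold change leaned on the low control library of mouse 2. The edgeR log2 fold change was 0.51 ± 0.65 (SE; 95% interval -1.12 to 2.15), 0.18 without the control library of mouse 2 and 0.92 without that of mouse 1.

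Fbxo32 and Trim63 are best known from myofibres, so the markers of myofibres are given beside them. The summed level of 17 markers was 199 and 204 TPM in the Numb exon 6 libraries and 175 and 189 TPM in the control libraries. None of the 17 was at 0 in all libraries. In both mice 4 were higher and 4 lower, against 28.1% and 27.3% of all tested genes, and the median log2 fold change was -0.02. Actn3 carried most of the sum, at 114 to 136 TPM, while Acta1 lay at 9.36 to 12.8 TPM, Ckm, the muscle creatine kinase, at 1.22 to 1.40 TPM and Myh4, a fast myosin heavy chain, at 0.041 to 0.243 TPM. The part of remaining myofibre RNA in the levels of Fbxo32 and Trim63 was not tested, and in bulk samples fewer cells of a type and less RNA per cell cannot be told apart.

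Foxo3 (chromosome 10, 42181841 to 42276755, minus strand) was the single member lower in both mice. It stood at 12.8 and 12.5 TPM in the Numb exon 6 libraries and at 14.5 and 13.6 TPM in the control libraries. Both Numb exon 6 libraries lay below both control libraries. The log2 ratios of CPM were -0.25 in mouse 1 and -0.18 in mouse 2. The edgeR log2 fold change was -0.22 ± 0.13 (SE; 95% interval -0.56 to 0.12; unadjusted p = 0.166), and -0.21 ± 0.10 (SE; unadjusted p = 0.0931, adjusted p = 0.796) once the mouse was a block. In all, 3 of the 7 genes had groups that did not overlap in CPM. Foxo3 was lower, against 17.1% of all tested genes in that direction, and Fbxo30 and Trim63 were higher, against 17.4%. Trim63 met this by a narrow margin: in mouse 1 it held 0.216 CPM with the Numb exon 6 morpholino and 0.201 with the control. Its estimated counts there were 69 and 70.

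Foxo1 (chromosome 3, 52268336 to 52353221, plus strand), a brake on myoblast differentiation, differed in sign between the mice. It stood at 8.70 and 10.8 TPM in the Numb exon 6 libraries and at 9.07 and 9.76 TPM in the control libraries. The Numb exon 6 libraries were the lowest and the highest of the 4. The log2 ratios of CPM were -0.14 and 0.11, and the edgeR log2 fold change was -0.0044 ± 0.15 (SE; 95% interval -0.40 to 0.39), and it ran from -0.17 to 0.14 when 1 library was left out. Foxo1 overlaps the gene models Gm20402, which is antisense to it, and Gm38034.

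Foxo4 (chromosome X, 101254528 to 101260873, plus strand) stood at 1.16 and 1.51 TPM in the Numb exon 6 libraries and at 0.917 and 1.43 TPM in the control libraries. The groups overlapped, although the log2 ratios of CPM were 0.26 and 0.19. Its edgeR log2 fold change was 0.22 ± 0.33 (SE; 95% interval -0.62 to 1.06). Its direction turned when mouse 2 lacked its Numb exon 6 library (-0.0074) or mouse 1 its control library (-0.0039), and it was 0.47 when mouse 2 lacked its control library. Foxo6 (chromosome 4, 120267079 to 120287349, minus strand), known mainly from the brain, had estimated counts of 89 and 101 in the Numb exon 6 libraries and of 54 and 94 in the control libraries, or about 22 and 25 fragments and 14 and 24 fragments at 4 counts a fragment. In TPM these were 0.207 and 0.324 in the Numb exon 6 libraries and 0.108 and 0.225 in the control libraries, and the groups overlapped. The log2 ratios of CPM were 0.82 and 0.48, and the edgeR log2 fold change was 0.62 ± 0.62 (SE; 95% interval -0.97 to 2.20). It was 1.18 without the control library of mouse 2 and 0.20 without that of mouse 1.

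**Figure D3:**
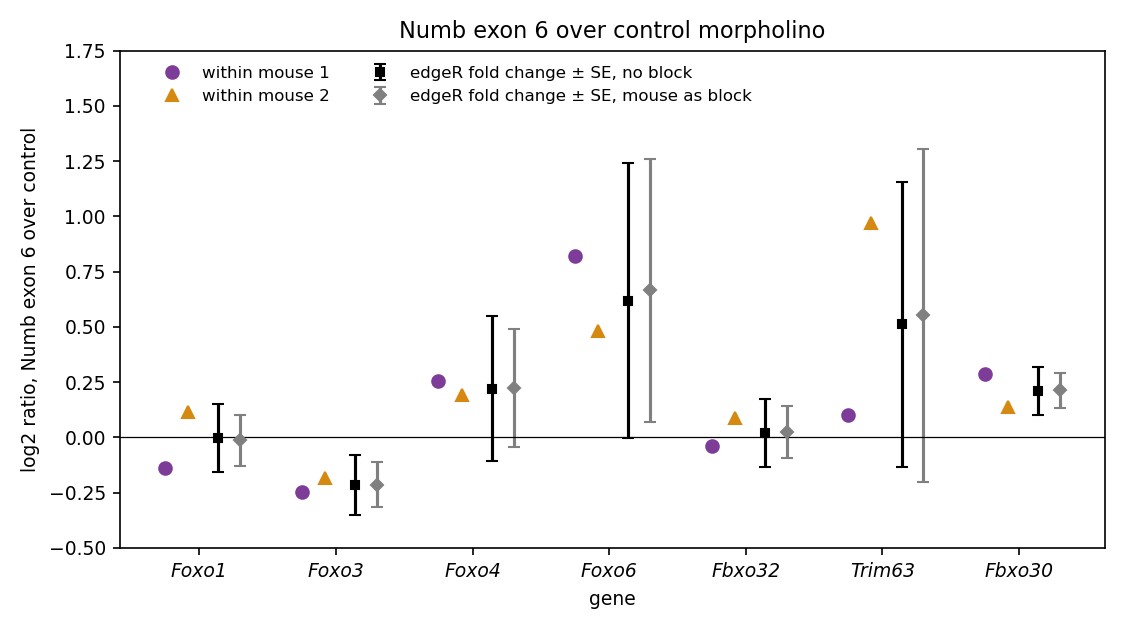
Log2 ratio of the Numb exon 6 over the control morpholino for each gene, within mouse 1 (circles) and mouse 2 (triangles), with the edgeR log2 fold change ± SE without a block (squares) and with the mouse as a block (diamonds). Fbxo30 lies above 0 and Foxo3 below 0 in both mice, and the bars of Foxo6 and Trim63 are the widest of the 7.

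Several cell types express Foxo1 and Foxo3, so the markers of other cells were read beside them. The summed level of 10 endothelial markers was 198 and 126 TPM in the Numb exon 6 libraries and 131 and 128 TPM in the control libraries. That of 13 leukocyte markers was 43.8 and 134 TPM in the Numb exon 6 libraries and 33.2 and 38.0 TPM in the control libraries. Of these 13 markers 9 were higher and 2 lower in both mice, against 28.1% and 27.3% of all tested genes, and the median log2 fold change was 1.39. At an unadjusted edgeR p under 0.05 there were 4, or 6 with the mouse as a block, against 4.16% and 6.09%, but 0 passed the adjustment. S100a8 and S100a9, which neutrophils express highly, stood in mouse 2 at 46.5 and 36.0 TPM with the Numb exon 6 morpholino, against 0.836 to 4.23 TPM in the other 3 libraries. The endothelial, fibro-adipogenic, mural and glial lists had medians of 0.12 to 0.50. That of 9 fibro-adipogenic progenitor markers was 1790 and 1662 TPM in the Numb exon 6 libraries and 1687 and 1581 TPM in the control libraries. For 7 mural cell markers it was 204 and 144 TPM in the Numb exon 6 libraries and 177 and 136 TPM in the control libraries, and for 6 glial markers 34.7 and 19.2 TPM in the Numb exon 6 libraries and 17.6 and 18.2 TPM in the control libraries. No marker of these lists was at 0 in all 4 libraries. Of the 10 satellite cell markers 6 were higher and 1 lower in both mice, against 28.1% and 27.3% of all tested genes. Their median log2 fold change was 0.10. At an unadjusted edgeR p under 0.05 there was 1 of the 10, or 3 with the mouse as a block, against 4.16% and 6.09%. Of these markers 0 passed the adjustment. The endothelial, fibro-adipogenic, mural and glial sums were highest in the Numb exon 6 library of mouse 1, where Foxo1 was lowest, and the leukocyte sum in that of mouse 2, where Foxo1 was highest. Their part in the values of Foxo1 and Foxo3 was not tested.

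The mice were also set side by side, 1 animal against 1, as values with no test. Foxo4 and Foxo6 were higher in mouse 2 than in mouse 1 with both morpholinos, by 0.42 and 0.62 on the log2 scale of CPM with the Numb exon 6 morpholino and by 0.48 and 0.96 with the control. Foxo1 and Fbxo30 were also higher, by 0.31 and 0.0057 with the Numb exon 6 morpholino and by 0.06 and 0.15 with the control. Foxo3 and Fbxo32 were lower in mouse 2, with log2 differences of -0.09 and -0.11 with the Numb exon 6 morpholino and of -0.16 and -0.24 with the control. Of all tested genes, 29.9% were higher and 27.6% lower in mouse 2 with both morpholinos. Trim63 had differences of opposite sign, 0.17 with the Numb exon 6 morpholino and -0.70 with the control. The gap between the mice was wider than that between the morpholinos in 4 of the 7 genes, Foxo1, Foxo4, Foxo6 and Fbxo32. The same held for 40.5% of all tested genes, a share not matched for abundance.

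Transcript lengths were read from the ratio of estimated count to TPM, which gives the mean length of the transcripts counted. Fbxo30 has annotated transcripts of 5060 and 2492 bases, and the implied length was 5059 and 4944 bases in the Numb exon 6 libraries and 5059 and 5041 bases in the control libraries, so nearly all of it was assigned to the longer one. For Foxo3, whose longest transcript has 6848 bases, it was 6084 and 5855 bases in the Numb exon 6 libraries and 6061 and 5995 bases in the control libraries. Foxo4, with transcripts of up to 3162 bases, had 2886 and 2983 bases in the Numb exon 6 libraries and 2907 and 2701 bases in the control libraries. Trim63, with transcripts of up to 1886 bases, had 1557 and 1787 bases in the Numb exon 6 libraries and 1757 and 1790 bases in the control libraries. Foxo1, Foxo6 and Fbxo32 have 1 annotated transcript each, so no shift could be seen for them. In none of these 4 genes did both Numb exon 6 libraries lie on the same side of both controls, and the assignment to transcripts is the authors' estimate.

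Upstream of FoxO, 36 receptors, kinases and cofactors were listed and 35 tested. By edgeR 0 passed in either direction, 2 had an unadjusted p under 0.05 and 3 did with the mouse as a block, against 4.16% and 6.09% of all tested genes. In both mice 10 were higher, against 28.1% of all tested genes, and 12 lower, against 27.3%, and the median log2 fold change was -0.0092. Sirt2, a deacetylase of FoxO proteins, stood at 89.9 and 91.0 TPM in the Numb exon 6 libraries and at 109 and 133 TPM in the control libraries (log2 fold change -0.45 ± 0.13, SE). Irs1, the insulin receptor substrate, stood at 10.3 and 9.52 TPM in the Numb exon 6 libraries and at 7.38 and 7.51 TPM in the control libraries (0.36 ± 0.13, SE). The kinases Akt1 and Sgk3 had log2 fold changes of -0.27 ± 0.15 and -0.38 ± 0.20 (SE). Sgk1, the most abundant kinase of the list in CPM and one that also phosphorylates FoxO3, stood at 1052 and 904 TPM in the Numb exon 6 libraries and at 999 and 821 TPM in the control libraries. Akt2, named after its values were seen, stood at 230 and 88.7 TPM in the Numb exon 6 libraries and at 97.1 and 238 TPM in the control libraries, in opposite directions in the mice.

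Of 32 known FoxO target genes, all tested, 0 passed in either direction and 5 had an unadjusted edgeR p under 0.05, against 4.16% of all tested genes. With the mouse as a block 8 did, against 6.09%. In both mice 15 were higher, against 28.1% of all tested genes, and 7 lower, against 27.3%, and the median log2 fold change was 0.06. Of the 13 leukocyte markers 9 were also higher in both mice, and their part in the values of the targets was not tested. Pdk4, the kinase that restrains pyruvate dehydrogenase, stood at 80.6 and 72.7 TPM in the Numb exon 6 libraries and at 38.0 and 56.3 TPM in the control libraries (log2 fold change 0.64 ± 0.20, SE). Pmaip1 (Noxa), a promoter of apoptosis, stood at 19.3 and 37.0 TPM in the Numb exon 6 libraries and at 10.9 and 17.1 TPM in the control libraries (1.04 ± 0.36, SE). Bbc3 (Puma), of the same class, was the lower in both mice, at 5.90 and 5.17 TPM in the Numb exon 6 libraries and 8.64 and 8.52 TPM in the control libraries (-0.62 ± 0.22, SE). Rbl2, a pocket protein of cell cycle exit, had 0.48 ± 0.18 (SE). The most abundant targets in CPM were Trib1 and Cdkn1a, at 0.15 ± 0.22 and -0.09 ± 0.26 (SE). The Notch receptors Notch1 and Notch3, targets through which FoxO3 is thought to act in satellite cells, had -0.26 ± 0.16 and 0.02 ± 0.10 (SE).

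Downstream and beside the ligases, the other lists held no called gene either. Of all tested genes 28.1% were higher and 27.3% lower in both mice, and 4.16% were at an unadjusted p under 0.05, or 6.09% with the mouse as a block. Of 17 other ligases linked to atrophy, both mice had 7 higher and 2 lower, the median was 0.11, and 0 were at an unadjusted p under 0.05, or 1 (Ubr2) with the block. Fbxo21 (SMART), another F-box gene of atrophy, stood at 6.35 and 6.28 TPM in the Numb exon 6 libraries and at 4.68 and 5.18 TPM in the control libraries (log2 fold change 0.36 ± 0.17, SE). Trim55, a close relative of Trim63, stood at 0.239 and 0.592 TPM in the Numb exon 6 libraries and at 0.216 and 0.152 TPM in the control libraries (1.18 ± 0.56, SE). Ubr2, Trim32 and Nedd4 had -0.21 ± 0.12, 0.34 ± 0.23 and 0.11 ± 0.12 (SE). Nedd4, the most abundant of them in TPM, stood at 143 and 123 TPM in the Numb exon 6 libraries and at 121 and 121 TPM in the control libraries.

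Of 14 genes of the SCF core and ubiquitin supply, both mice had 5 higher and 4 lower, against 28.1% and 27.3% of all tested genes, and the median was -0.04. At an unadjusted p under 0.05 there were 2, or 4 with the block, against 4.16% and 6.09%. Skp1a, which joins F-box proteins such as Fbxo30 and Fbxo32 to the cullin, stood at 144 and 126 TPM in the Numb exon 6 libraries and at 159 and 176 TPM in the control libraries (log2 fold change -0.45 ± 0.15, SE). Dcun1d1, which helps attach NEDD8 to cullins, stood at 45.9 and 33.5 TPM in the Numb exon 6 libraries and at 24.2 and 24.2 TPM in the control libraries (0.85 ± 0.29, SE). The ubiquitin gene Ubb had -0.27 ± 0.18 (SE). The conjugating enzyme gene Ube2l3 had 0.77 ± 0.44 (SE), with log2 ratios of opposite sign in the mice; its CPM was 20.2 and 52.2 in the Numb exon 6 libraries and 21.2 and 21.2 in the control libraries, so that 1 library stood apart.

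Of 22 autophagy genes, both mice had 11 higher and 4 lower, against 28.1% and 27.3% of all tested genes, the median was 0.06, and 0 were at an unadjusted p under 0.05 without or with the block, against 4.16% and 6.09%. Bnip3, a mitophagy receptor induced by FoxO3 in muscle, had a log2 fold change of 0.32 ± 0.18, Atg7 of 0.33 ± 0.19 and Sqstm1 (p62), the most abundant, of -0.0016 ± 0.21 (SE). Of 11 known substrates and targets of the ligases, both mice had 2 higher and 4 lower, the median was -0.04, and 0 were at an unadjusted p under 0.05 without or with the block. Among them Myod1 had 0.10 ± 0.13, Eif3f 0.15 ± 0.11 and Des, the desmin gene, -0.16 ± 0.10 (SE).

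**Figure D4:**
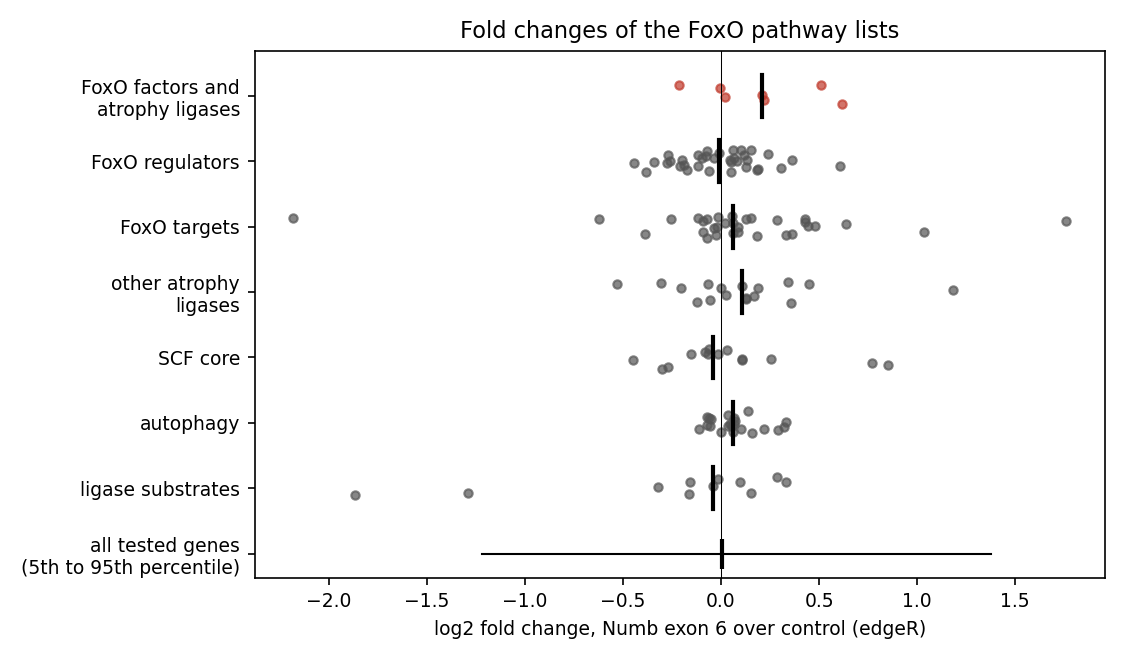
Log2 fold change (edgeR, Numb exon 6 over control morpholino) of each tested gene in 7 lists, with the FoxO factors and atrophy ligases in red and thick lines at the list medians; the lowest line spans the 5th to 95th percentile of all tested genes, -1.22 to 1.38. The list medians lie between -0.04 and 0.21, and every FoxO factor and atrophy ligase lies inside the span of all genes. The span was not matched for abundance, so lying inside it does not show whether a gene moved.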

How the data were processed

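RNA of 4 libraries, 2 per morpholino from 2 mice, was measured by RNA-seq; the labels' protocols give an input of 5 ng of RNA and the SMART-Seq2 method, which does not mark the strand. The submitters' processing notes name GRCm38, HISAT2 2.1.0 and StringTie 1.3.6. The authors' deposited estimated counts are whole numbers, and the deposited TPM are scaled to transcript length and library. The sources used here do not give the annotation release or how coverage was turned into counts. Positions and transcript lengths come from GENCODE vM21 (GRCm38), which holds 55094 of the 55487 identifiers.

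The main test was edgeR 4.0.16 in R 4.3.3: robust quasi-likelihood fit, TMM factors, default expression filter by group, no block, Benjamini-Hochberg adjustment at 0.05 over 27551 genes. Each log2 fold change is the Numb exon 6 group over the control group; the SE and 95% interval derive from the quasi-likelihood statistic. The ratio within a mouse was taken on log2 CPM at a prior count of 2. Same-numbered libraries come from 1 animal, so the mouse pairs them. After removal of group means their deviations correlated at 0.40 across genes whose mean log2 CPM was 3 or more and at 0.06 over all tested genes. Implied transcript lengths used 1 constant per library, set on genes with 1 annotated transcript and over 500 counts, at least 99.96% of which fell within 1% of it.

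The members and lists were chosen with earlier results of these data known. Named genes were all 7 members and, from the lists, up to 4 genes of smallest p and the 2 of highest mean CPM, with some named fewer and 1 gene not reported here; Acta1, Ckm, S100a8, S100a9, Notch1, Notch3, Akt2 and the leaders of the gene families stand outside that rule and were chosen after their values were seen. Without the block, each p sets the group difference against the spread between libraries of 2 animals and leaves the pairing out. With the mouse as a block, it is set against the spread left once the difference between the animals is removed. In both edgeR fits 4 libraries give little of this spread per gene, and the estimate is drawn in part from other genes. Alternatives were the mouse block, DESeq2 size factors, no filter and a stricter one, DESeq2 1.42.0 with and without the block, limma-voom and limma 3.58.1 on log2(TPM + 1) and log2(TPM + 0.1), counts divided by 4, and removal of each library.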

Additional observations from a re-analysis of the deposited data

How the results depend on the processing

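None of the 7 genes was called under any of the 14 alternatives, of which the filter at 5 CPM in 2 libraries kept only Foxo1, Foxo3, Fbxo32 and Fbxo30. Over all genes edgeR called 0, and also 0 with the replicate block (the mouse as a term), which changed no call. The calls over all genes came to 10 without a filter on low counts, 1 with that filter, 65 in DESeq2 and 159 in DESeq2 with the mouse as a block; without 1 library they ran from 0 to 1. The cause was not tested. Fbxo30 stayed positive (log2 fold change 0.13 to 0.28) and Foxo3 negative (-0.30 to -0.13) under all 14, and Foxo6 (0.12 to 1.18) and Trim63 (0.12 to 0.92) stayed positive under the 13 that tested them. The lowest values of Foxo6 and Trim63 came on log2(TPM + 1), where the pseudocount exceeds their TPM. In CPM the groups of Fbxo30, Foxo3 and Trim63 did not overlap, so removing 1 library could hardly turn their direction. The alternatives also reuse the same libraries. Foxo1 turned positive on log2(TPM + 1) (0.040) and log2(TPM + 0.1) (0.043). It also did so when mouse 1 lacked its Numb exon 6 library (0.14) or mouse 2 its control library (0.01), with a leave-one-out range of -0.17 to 0.14. Foxo4 turned to -0.0074 when mouse 2 lacked its Numb exon 6 library and to -0.0039 when mouse 1 lacked its control library (range -0.0074 to 0.47). Fbxo32 turned to -0.04 when mouse 1 lacked its Numb exon 6 library and to -0.10 when mouse 2 lacked its control library (range -0.10 to 0.14). Depth limits Trim63 and Foxo6, at about 9 to 25 fragments per library if 1 fragment is worth 4 counts.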

Other observations

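Genes of like profile were sought for the member of widest range over the 4 libraries, Foxo6, and for the most abundant, Fbxo30, as the smallest root mean square distance between log2 CPM profiles centred on their mean. With 4 libraries and so many candidate genes, close profiles are easy to find, and the distances are given as a description. Nearest to Foxo6 among 7926 genes were Birc3 (0.0218), an inhibitor of apoptosis, Tifa (0.0904) and Rps6ka5 (0.0995). All 3 were lowest in the control library of mouse 1 and highest in the Numb exon 6 library of mouse 2. This follows from their choice by distance to Foxo6, which had the same order. The profile of Foxo6 itself rests on about 14 to 25 fragments per library at 4 counts a fragment. Nearest to Fbxo30 among 7925 genes were Atp5f1 (0.0108), a subunit of ATP synthase, Cetn3 (0.0116), a centrin, and Tomm40l (0.0154).

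Among 68 genes with Trim names, Trim63 ranked 46 by mean TPM, and 32 of them had a mean of at least 1 TPM. Trim35, at 131 to 171 TPM, led that family, ahead of Trim27 at 41.6 to 92.0 TPM.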
